A study of Arabidopsis thaliana with 9 samples.

Results

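Roots of Arabidopsis thaliana seedlings that had spent 1 day on carbenicillin were compared with mock roots, gene by gene, over the 6 libraries that carry those labels out of the 9 in the series. The plants were of the Col-0 ecotype and carried no transgene or mutation named in the labels. Seedlings of both groups grew for 6 days on a first plate of antibiotic-free medium and for 1 day on a second plate, kept at 24 °C under 16 h of light (100 µmol/m2/s) and 8 h of darkness a day. The second plate was free of the antibiotic for the 3 mock samples and held 10 µg/mL carbenicillin for the 3 samples called 1 day here. The remaining 3 libraries came from seedlings kept on the antibiotic for all 7 days and served mainly to estimate the spread between libraries. Every gene that passed a filter on low counts was taken in, 19580 of 28775 in the table. Replicas carry numbers, but no label says that they came from separate cultures. The p-values therefore measure only the spread between these samples, and that spread may be technical.

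Total counts ran from 5820675 to 16088265 over the 6 libraries, and a floor of 3 counts corresponded to between 0.186 and 0.515 CPM, the counts of a gene scaled to a common library size. All 11 root markers looked up, among them WOX5, SCR, CASP1 and COBL9, had counts in all 6 libraries and summed to between 512 and 604 CPM. A set of 8 transcripts abundant in shoots (TGG1, LOX2, and members of the CA, LHCB1 and RBCS families), which had been chosen with these data in view, added up to 32.5, 0.758 and 38.6 CPM in mock 1, 2 and 3 and to 1.31, 2.11 and 62.4 CPM in 1 day 1, 2 and 3. Of these 8, 4 were at 0 in mock 2, 4 in 1 day 1 and 1 in 1 day 2. These are bulk samples, so fewer cells of a type and less RNA per cell cannot be told apart.

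Carbenicillin is a beta-lactam, a class of antibiotics that blocks the cross-linking of peptidoglycan in bacterial walls. Plant roots are reached by light on transparent plates and contain photoreceptors. In light, the bZIP factor HY5 escapes destruction by the COP1-SPA ubiquitin ligase and switches on genes for flavonoid synthesis, photoprotection and repair of damage by ultraviolet light, often through promoter elements with an ACGT core. Sulfate is taken up by roots and reduced to sulfide for cysteine, and a separate group of genes responds to a shortage of it. Genes of the sugar starvation group, by contrast, are switched on in darkness or when carbon runs short.

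After 1 day, 29 genes fell and 2 rose at a Benjamini-Hochberg adjusted p under 0.05 in the quasi-likelihood test of edgeR, which was 0.158% of the genes tested, 0.148% called lower and 0.0102% called higher. All genes together were balanced, with 9846 lower and 9734 higher and a median log2 fold change of -0.00. At an unadjusted p under 0.05 there were 1459 genes (7.45%), of which 680 (3.47%) were lower and 779 (3.98%) higher. The median log2 fold change of the 29 was -1.504, and 21 of them fell at least 2-fold. Most of those with a known role are genes of light signalling, photoprotection, phenolic metabolism or sulfur metabolism. In each of the 31 the 3 mock values and the 3 values after 1 day did not overlap, which was so for 12.3% of all genes (5.79% lower, 6.52% higher). By chromosome, 4, 5, 6, 3 and 13 of the called genes lay on chromosomes 1 to 5. The tested genes on each chromosome were not counted, so these numbers set no chromosome apart.

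**Figure D1:**
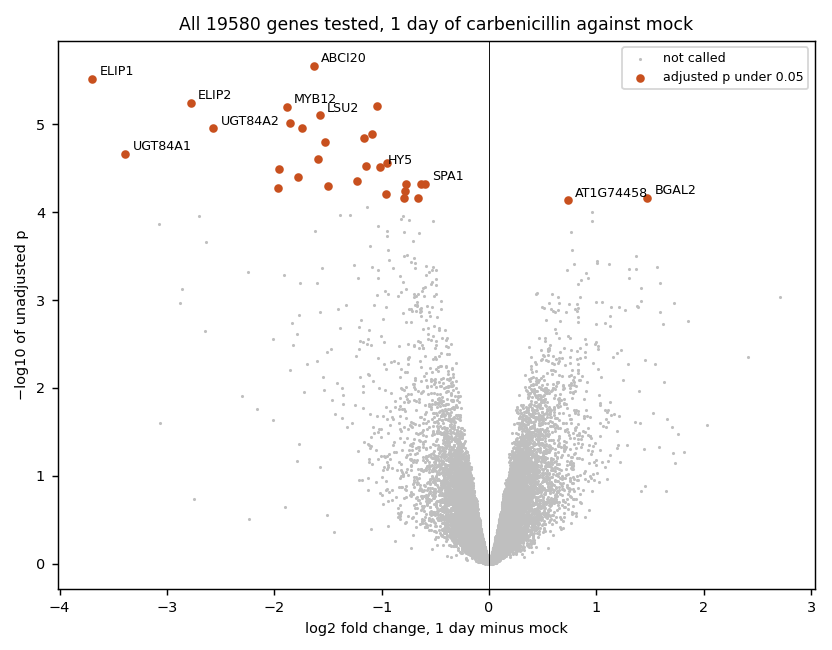
Log2 fold change of 1 day against mock (x axis) and -log10 of the unadjusted p-value (y axis) for the 19580 genes tested, with the 31 called genes marked. The called genes lie almost all on the lower side, with ELIP1 at -3.70 and UGT84A1 at -3.39 farthest out and BGAL2 and AT1G74458 the only ones on the higher side.

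Of the factors that carry the light signal, HY5, HYH, SPA1, TZP and BBX25 fell. HY5 had 35.6, 52.0 and 43.0 CPM in mock 1, 2 and 3 and 20.8, 24.6 and 19.5 CPM in 1 day 1, 2 and 3. The lowest mock library stood above the highest library after 1 day, and the log2 fold change was -1.01 (SE 0.15 and adjusted p 0.0346, the latter, like every adjusted p that follows, from the quasi-likelihood test of edgeR with Benjamini-Hochberg adjustment). HYH, the closest relative of HY5 and active at many of the same promoters, had 31.9, 44.9 and 35.4 CPM in mock 1, 2 and 3 and 14.2, 16.3 and 17.9 CPM in 1 day 1, 2 and 3. Its groups did not overlap either, and it fell by 1.23 in log2 units (SE 0.19 and adjusted p 0.0405).

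SPA1, which encodes a partner of COP1 in the ubiquitin ligase that removes HY5, was among the steadiest genes called, with 164, 171 and 164 CPM in mock 1, 2 and 3 and 104, 111 and 116 CPM in 1 day 1, 2 and 3. It fell by 0.60 in log2 units (SE 0.09 and adjusted p 0.0405). COP1 itself did not pass, with 67.1, 79.0 and 71.6 CPM in mock 1, 2 and 3 and 61.5, 68.9 and 67.8 CPM in 1 day 1, 2 and 3 and a log2 fold change of -0.14 (adjusted p 0.810). Its groups overlapped. TZP, a zinc-finger protein of phytochrome B signalling, had 69.9, 84.5 and 73.7 CPM in mock 1, 2 and 3 and 40.6, 43.9 and 47.8 CPM in 1 day 1, 2 and 3. The log2 fold change of TZP was -0.79 (SE 0.13 and adjusted p 0.0456), with no overlap. BBX25, also called STH, a B-box protein that binds HY5 and damps its action, had 10.2, 15.02 and 10.8 CPM in mock 1, 2 and 3 and 4.37, 3.78 and 4.57 CPM in 1 day 1, 2 and 3 and fell by 1.53 in log2 units (SE 0.21 and adjusted p 0.0258). CRY3, a cryptochrome of the DASH type found in plastids and mitochondria, where it repairs ultraviolet lesions in single-stranded DNA, had 51.0, 71.4 and 60.4 CPM in mock 1, 2 and 3 and 26.3, 23.7 and 32.6 CPM in 1 day 1, 2 and 3. Its log2 fold change was -1.16 (SE 0.16 and adjusted p 0.0251).

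The core list of light signalling held 20 tested genes, of which 14 were lower and 6 higher, with a median log2 fold change of -0.13 beside -0.00 for all genes. Of the 20, 4 were called, beside 0.158% of all genes. At an unadjusted p under 0.05, 9 (45.0%) were lower and 1 (5.0%) higher, beside 3.47% and 3.98% of all genes. RUP2, a repressor of the ultraviolet-B receptor UVR8, narrowly missed the threshold, with 13.3, 17.1 and 13.9 CPM in mock 1, 2 and 3 and 6.23, 7.06 and 7.05 CPM in 1 day 1, 2 and 3 and a log2 fold change of -1.14 (adjusted p 0.0533). RUP1, its homolog, had a log2 fold change of -0.81 (adjusted p 0.131). SPA3 and SPA4 had values of -0.73 and -0.77, both with an adjusted p of 0.187. FHY1, a carrier of phytochrome A into the nucleus, was the member that was higher at an unadjusted p under 0.05, with a log2 fold change of 0.43 (adjusted p 0.472).

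Photoreceptor genes other than CRY3 did not pass. Of 13 tested, 9 were lower and 4 higher, with a median of -0.04. PHYB had 156, 149 and 139.7 CPM in mock 1, 2 and 3 and 104, 96.3 and 116 CPM in 1 day 1, 2 and 3, with no overlap and a log2 fold change of -0.49 (adjusted p 0.133). CRY2 stood the other way, with 128, 142 and 139.9 CPM in mock 1, 2 and 3 and 172, 189 and 156 CPM in 1 day 1, 2 and 3 and a log2 fold change of 0.33 (adjusted p 0.422). UVR8 had a log2 fold change of -0.12 (adjusted p 0.840). In the B-box proteins of group IV, 6 of 7 were lower, with a median of -0.48. BBX30 had 2.102, 5.22 and 2.42 CPM in mock 1, 2 and 3 and 0.501, 0.441 and 0.653 CPM in 1 day 1, 2 and 3, a log2 fold change of -2.70 that did not pass (adjusted p 0.0585). Its values after 1 day came from only 7, 7 and 5 counts. BBX24 had -0.74 (adjusted p 0.0608), and BBX21, an activator of HY5, was the member on the higher side, at 0.47 (adjusted p 0.496).

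The largest fall was in a gene of photoprotection. ELIP1, which encodes a chlorophyll-binding protein made under strong light, had 78.3, 151 and 130.2 CPM in mock 1, 2 and 3 and 8.09, 7.81 and 12.7 CPM in 1 day 1, 2 and 3. The mock mean was 12.6 times the mean after 1 day, and the log2 fold change was -3.70 (SE 0.43 and adjusted p 0.0240). The highest ELIP1 value came from mock 2, the library with the lowest sum of shoot transcripts. ELIP2, a close copy of ELIP1 with which it may share reads, had 21.7, 39.9 and 39.3 CPM in mock 1, 2 and 3 and 4.08, 3.47 and 8.23 CPM in 1 day 1, 2 and 3 and fell by 2.78 in log2 units (SE 0.34 and adjusted p 0.0240). In both genes the highest library after 1 day was 1 day 3, which also held the most shoot transcripts. With the level of shoot transcripts as a covariate, the ELIP1 log2 fold change was -3.75 and the ELIP2 log2 fold change was -2.80.

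DDB2, which recognises DNA damaged by ultraviolet light, had 30.3, 38.6 and 29.6 CPM in mock 1, 2 and 3 and 17.5, 17.1 and 15.9 CPM in 1 day 1, 2 and 3 and fell by 0.96 in log2 units (SE 0.15 and adjusted p 0.0452). UVR2, the photolyase for cyclobutane dimers, did not pass, with 17.2 ± 3.01 CPM in mock and 9.13 ± 1.71 CPM after 1 day (SD, n = 3 each, as for every mean ± SD that follows) and a log2 fold change of -0.94 (adjusted p 0.0985). PSBS, which dissipates excess light energy in photosystem II, had 23.7 ± 1.59 CPM in mock and 13.6 ± 6.24 CPM after 1 day, with a log2 fold change of -0.83 (adjusted p 0.399). In the whole list of ultraviolet damage and photoprotection, 10 of 12 tested genes were lower. Members at an unadjusted p under 0.05 were 6 lower and none higher, beside 3.47% and 3.98% of all genes. These 6 include the called genes ELIP1, ELIP2 and DDB2 given above. The list median was -0.54, and it stayed between -0.75 and -0.47 over the alternatives tried. SIGE, a sigma factor of the plastid RNA polymerase that answers to light and stress, had 53.1, 109.8 and 73.6 CPM in mock 1, 2 and 3 and 20.2, 26.5 and 24.8 CPM in 1 day 1, 2 and 3. It fell by 1.74 in log2 units (SE 0.23 and adjusted p 0.0240). The other sigma factors tested were not called, and 3 of the 5 in all were lower.

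**Figure D2:**
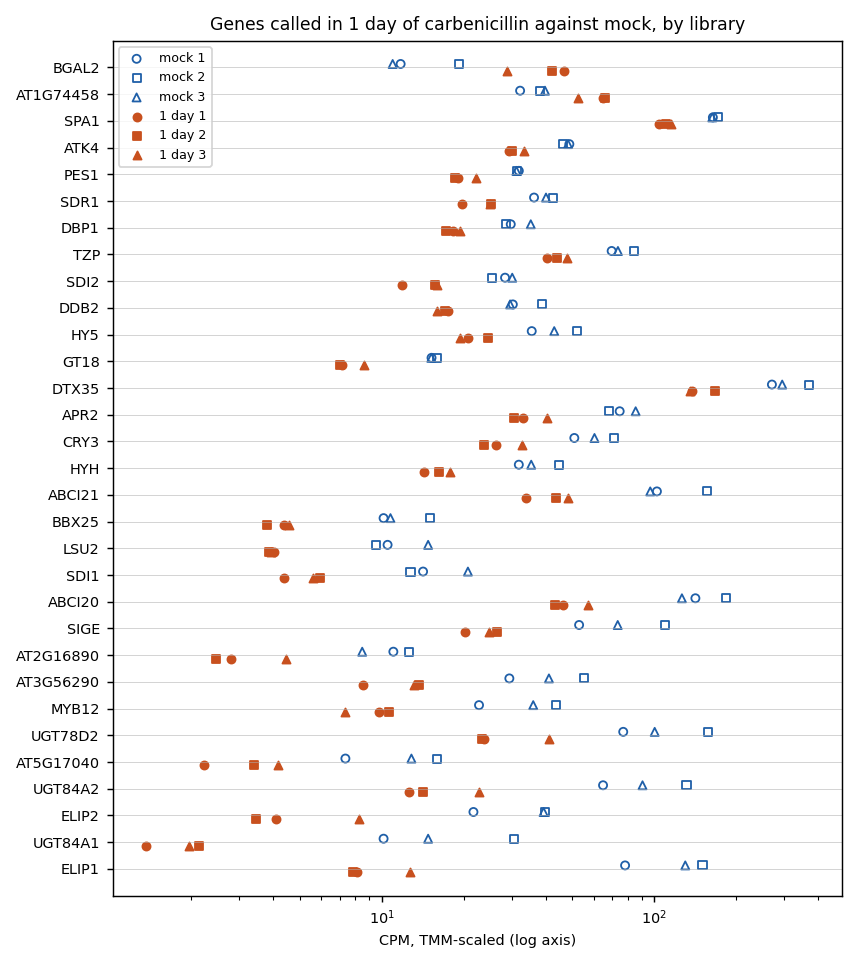
CPM on a log axis for each of the 31 called genes in the 3 mock libraries (open symbols) and the 3 libraries after 1 day (filled symbols). In every row the groups are apart, most widely for ELIP1 (78.3 to 150.7 CPM in mock and 7.81 to 12.7 CPM after 1 day), and the mock values of UGT84A1, UGT84A2 and ELIP1 spread more than those of SPA1, ATK4 and PES1.

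Promoters of the called genes were read from the RefSeq assembly TAIR10.1, as the 250 bases before each annotated start, because many light-responsive genes hold ACGT-core elements there. The words searched on both strands were 7, of which 3 have an ACGT core. These are the G-box CACGTG, the CG hybrid GACGTG (read as CACGTC on the other strand) and the C-box GACGTC, and a core can match only 1 of them. A G-box was found in 4 of 29 promoters of genes that fell (13.8%) and in 7.24% of 19054 promoters of tested genes. The CG hybrid was found in 6 of 29 (20.7%) and in 6.38% of all, and the C-box in 1 of 29 (3.45%) and in 2.44% of all. At least 1 of these words was present in 9 of the 29 (31.0%), beside 14.7% of all, and in neither promoter of the 2 genes that rose. The other 4 words were the evening element AAAATATCT (3.45% of the 29 and 2.42% of all), the I-box GATAAG (10.3% and 12.1%), the sulfur element GAGAC (31.0% and 25.1%) and the TATCCA element (17.2% and 14.2%), and neither gene that rose held any of them. The capitals further on mark only the ACGT words. Of the 7, the CG hybrid differed most between the 29 and all promoters, and no difference was tested. A match describes these letters and is no evidence of binding. The 6 windows follow, each 5′ to 3′ on the strand of its gene and with the matched words in capitals. They are shown for ELIP1 (chr3:8085670-8085919, minus strand) and its copy ELIP2 (chr4:8417992-8418241, plus strand), which fell most among chlorophyll-binding proteins, and for MYB12 (chr2:19476076-19476325, plus strand), DDB2 (chr5:23733708-23733957, minus strand) and ABCI21 (chr5:17755769-17756018, minus strand), which stand for flavonol control, repair and transport. BGAL2 (chr3:19580799-19581048, plus strand), the gene that rose most, is shown beside them.
ELIP1: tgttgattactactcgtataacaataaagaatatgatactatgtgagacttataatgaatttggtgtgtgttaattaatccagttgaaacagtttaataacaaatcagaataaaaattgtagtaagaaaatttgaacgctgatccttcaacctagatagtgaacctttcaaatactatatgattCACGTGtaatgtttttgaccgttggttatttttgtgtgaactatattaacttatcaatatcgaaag
ELIP2: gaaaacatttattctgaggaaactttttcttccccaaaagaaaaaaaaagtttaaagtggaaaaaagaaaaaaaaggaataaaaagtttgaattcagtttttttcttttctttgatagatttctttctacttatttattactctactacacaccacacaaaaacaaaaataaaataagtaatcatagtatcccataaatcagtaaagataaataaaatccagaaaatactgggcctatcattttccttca
MYB12: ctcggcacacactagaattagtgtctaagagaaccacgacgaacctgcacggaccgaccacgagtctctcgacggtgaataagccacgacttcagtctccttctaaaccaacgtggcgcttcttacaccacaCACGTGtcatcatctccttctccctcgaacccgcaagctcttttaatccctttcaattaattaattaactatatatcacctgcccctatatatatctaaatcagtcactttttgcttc
DDB2: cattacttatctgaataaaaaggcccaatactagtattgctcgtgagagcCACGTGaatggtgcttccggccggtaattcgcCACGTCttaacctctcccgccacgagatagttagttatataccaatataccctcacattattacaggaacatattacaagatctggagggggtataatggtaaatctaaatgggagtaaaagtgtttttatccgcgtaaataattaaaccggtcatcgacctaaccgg
ABCI21: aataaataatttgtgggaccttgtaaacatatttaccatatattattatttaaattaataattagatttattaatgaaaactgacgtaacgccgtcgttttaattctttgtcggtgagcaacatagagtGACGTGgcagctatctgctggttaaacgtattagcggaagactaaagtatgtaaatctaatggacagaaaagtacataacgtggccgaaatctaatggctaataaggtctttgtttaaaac
BGAL2: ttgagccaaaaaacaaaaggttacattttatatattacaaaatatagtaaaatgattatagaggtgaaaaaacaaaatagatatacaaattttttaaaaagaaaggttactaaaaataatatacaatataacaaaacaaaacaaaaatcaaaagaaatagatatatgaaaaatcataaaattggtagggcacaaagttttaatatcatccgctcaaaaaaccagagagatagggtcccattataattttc

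The ELIP1 window held a G-box and that of ELIP2 held none of the 3 words, although both genes fell. The window of DDB2 held a G-box and a CG hybrid, that of MYB12 a G-box and that of ABCI21 a CG hybrid. CRY3 also had both kinds, UGT84A1, UGT84A2 and SDI1 each had a CG hybrid, and SDR1 had the C-box. The windows shown are not typical of the genes that fell. Among them only that of ELIP2 lacked the words, whereas 9 of all 29 (31.0%) held one. Those of ABCI20, HY5, HYH, SPA1, BBX25 and SIGE, which are not shown, held none. Windows of BBX25, AT3G56290, ABCI20 and HY5 also cover parts of other genes.

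Flavonoid genes were lower as a group, and 3 of the 14 tested fell, beside 0.148% of all genes called lower. MYB12, which switches on flavonol synthesis, had 22.8, 43.8 and 36.0 CPM in mock 1, 2 and 3 and 9.81, 10.6 and 7.31 CPM in 1 day 1, 2 and 3. The groups did not overlap, and the log2 fold change was -1.88 (SE 0.23 and adjusted p 0.0240). UGT78D2, which adds glucose to flavonols and anthocyanidins, had 77.1, 158 and 101 CPM in mock 1, 2 and 3 and 23.8, 23.4 and 41.0 CPM in 1 day 1, 2 and 3 and fell by 1.96 in log2 units (SE 0.29 and adjusted p 0.0346). DTX35, a MATE carrier involved in flavonoid transport, had 271, 372 and 296 CPM in mock 1, 2 and 3 and 138, 167 and 136 CPM in 1 day 1, 2 and 3. Its log2 fold change was -1.09 (SE 0.15 and adjusted p 0.0251).

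All 14 flavonoid genes tested were lower, 13 of them (92.9%) at an unadjusted p under 0.05, beside 3.47% of all genes. The list median of -1.21 stayed between -1.52 and -0.96 over the alternatives. Early steps included TT4, the chalcone synthase that opens the pathway, with 1268, 1242 and 1620.4 CPM in mock 1, 2 and 3 and 762, 957 and 960.2 CPM in 1 day 1, 2 and 3 and a log2 fold change of -0.62 (adjusted p 0.429). F3H, which makes dihydroflavonols, had 443 ± 146 CPM in mock and 196 ± 44.9 CPM after 1 day (log2 fold change -1.18, adjusted p 0.420). FLS1, the main flavonol synthase, had 350.2 ± 98.8 CPM in mock and 132 ± 30.2 CPM after 1 day (log2 fold change -1.41, adjusted p 0.159). TT7, which hydroxylates the B ring, and CHIL, which aids chalcone synthase, had log2 fold changes of -1.51 and -1.21. UGT89C1 and RHM1, which attach and make rhamnose for flavonols, had -1.39 and -0.78. None of these passed the adjusted threshold. OMT1, a methyltransferase shared with lignin synthesis, was the member nearest to 0, at -0.08.

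Both called genes of hydroxycinnamate metabolism fell. UGT84A1 and UGT84A2 encode glucosyltransferases that make glucose esters of hydroxycinnamic acids such as sinapate. UGT84A1 had 10.2, 30.7 and 14.8 CPM in mock 1, 2 and 3 and 1.36, 2.14 and 1.96 CPM in 1 day 1, 2 and 3, with no overlap, and fell by 3.39 in log2 units (SE 0.48 and adjusted p 0.0326). UGT84A2 had 65.0, 132 and 90.7 CPM in mock 1, 2 and 3 and 12.6, 14.2 and 22.9 CPM in 1 day 1, 2 and 3 and a log2 fold change of -2.57 (SE 0.34 and adjusted p 0.0240). In both genes mock 2 was the highest library. 4CL3, the coumarate ligase most tied to flavonoids, had 48.9 ± 22.5 CPM in mock and 12.6 ± 5.40 CPM after 1 day but did not pass (log2 fold change -2.01, adjusted p 0.250). PAL1, at the entry of the pathway, had 1217 ± 267 CPM in mock and 735 ± 91.9 CPM after 1 day (log2 fold change -0.73, adjusted p 0.435). Over 23 phenylpropanoid and lignin genes, 17 were lower and 6 higher. At an unadjusted p under 0.05, 7 (30.4%) were lower and none higher, beside 3.47% and 3.98% of all genes. The list median was -0.17.

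Of 100 tested UDP-glycosyltransferases, a family that attaches sugars to small molecules, 5 fell and none rose, beside 0.148% of all genes called lower. At an unadjusted p under 0.05, 16 (16.0%) were lower and 2 higher, beside 3.47% and 3.98% of all genes. AT5G17040, which lies beside UGT78D2 on chromosome 5, had 7.36, 16.0 and 12.9 CPM in mock 1, 2 and 3 and 2.22, 3.40 and 4.18 CPM in 1 day 1, 2 and 3. It fell by 1.96 in log2 units (SE 0.31 and adjusted p 0.0416). AT2G16890 had 11.04, 12.6 and 8.48 CPM in mock 1, 2 and 3 and 2.79, 2.46 and 4.44 CPM in 1 day 1, 2 and 3 and a log2 fold change of -1.78 (SE 0.27 and adjusted p 0.0405). Another member, AT2G22590, had 13.8, 40.0 and 31.8 CPM in mock 1, 2 and 3 and 2.00, 2.08 and 7.57 CPM in 1 day 1, 2 and 3 and missed the threshold (log2 fold change -3.07, adjusted p 0.0641).

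Of 23 tested genes in the list of sulfate uptake and sulfur starvation, 4 fell, beside 0.148% of all genes called lower. LSU2, a small protein made when sulfur is low, had 10.5, 9.55 and 14.8 CPM in mock 1, 2 and 3 and 4.01, 3.84 and 3.92 CPM in 1 day 1, 2 and 3. Its values after 1 day lay close together and below every mock value, with a log2 fold change of -1.57 (SE 0.20 and adjusted p 0.0240). SDI1, which restrains glucosinolate synthesis under sulfur shortage, had 14.2, 12.8 and 20.7 CPM in mock 1, 2 and 3 and 4.37, 5.92 and 5.61 CPM in 1 day 1, 2 and 3 and fell by 1.60 in log2 units (SE 0.23 and adjusted p 0.0345). SDI2, its homolog, had 28.4, 25.4 and 30.2 CPM in mock 1, 2 and 3 and 11.9, 15.7 and 15.9 CPM in 1 day 1, 2 and 3 and a log2 fold change of -0.95 (SE 0.14 and adjusted p 0.0346). APR2, the main isoform of adenosine phosphosulfate reductase, which turns activated sulfate into sulfite, had 74.8, 68.4 and 85.6 CPM in mock 1, 2 and 3 and 32.9, 30.6 and 40.3 CPM in 1 day 1, 2 and 3. It fell by 1.15 in log2 units (SE 0.17 and adjusted p 0.0346).

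Of 23 tested genes of sulfate uptake and sulfur starvation, 20 were lower and 3 higher. Those lower at an unadjusted p under 0.05 were 11 (47.8%), beside 3.47% of all genes. The list median of -0.45 stayed between -0.51 and -0.42 over the alternatives. APR3 and APR1 had log2 fold changes of -0.88 and -0.77 that did not pass (adjusted p 0.322 and 0.464). GGCT2;1, which recycles glutathione, had 2.94 ± 1.29 CPM in mock and 0.947 ± 0.315 CPM after 1 day (log2 fold change -1.77, adjusted p 0.167). The high-affinity root transporters were not called. SULTR1;2 had 475, 329 and 404 CPM in mock 1, 2 and 3 and 319, 232 and 389 CPM in 1 day 1, 2 and 3, with overlapping groups and a log2 fold change of -0.36 (adjusted p 0.807). SULTR1;1 had 6.83, 7.29 and 6.13 CPM in mock 1, 2 and 3 and 6.801, 8.38 and 4.57 CPM in 1 day 1, 2 and 3 and a log2 fold change of -0.00, whose sign depended on the scaling and on the libraries used. In the list of cysteine and glutathione synthesis, 1 of 13 genes was lower at an unadjusted p under 0.05 and none was higher, with a median of -0.02. Aliphatic glucosinolate genes, 9 of 14 lower with a median of -0.16, and indole glucosinolate genes, 11 of 22 lower with a median of -0.02, had no member at that level in either direction.

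**Figure D3:**
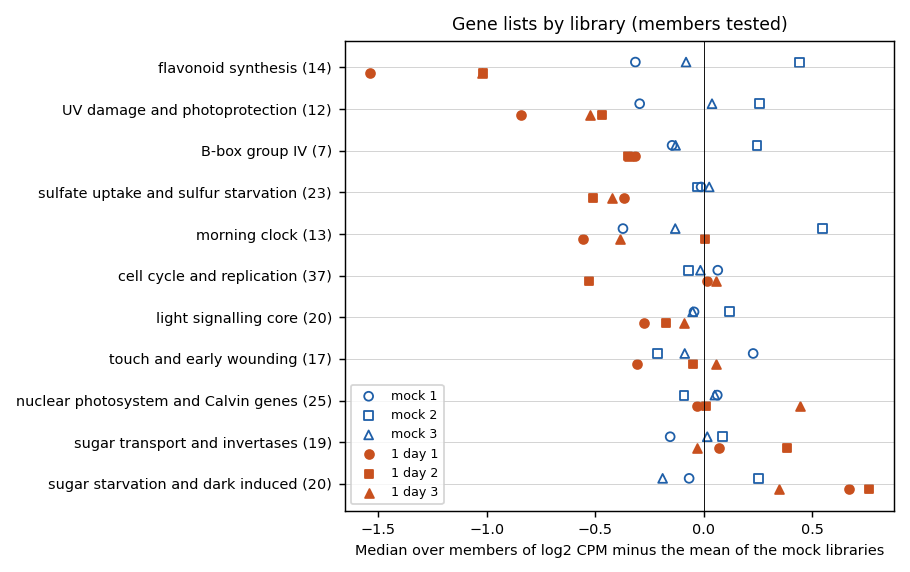
For 11 gene lists, the median over members of log2 CPM minus the mean of the mock libraries (x axis, log2 units) in each of the 6 libraries (open symbols for mock, filled for 1 day); the lists were chosen for the plot after their values had been seen. Flavonoid genes lie at -1.54, -1.02 and -1.02 after 1 day and between -0.32 and 0.44 in mock, sulfur genes lie at -0.51 to -0.37 after 1 day, and sugar starvation genes lie at 0.35 to 0.76.

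Several called genes belonged to none of the groups above. ABCI20 and ABCI21 encode soluble ABC proteins that, with ABCI19, modulate cytokinin responses at the endoplasmic reticulum. ABCI20 had 142, 184 and 127 CPM in mock 1, 2 and 3 and 46.5, 43.3 and 57.2 CPM in 1 day 1, 2 and 3, a log2 fold change of -1.63 (SE 0.18 and adjusted p 0.0240). ABCI21 had 102, 156 and 96.9 CPM in mock 1, 2 and 3 and 33.8, 43.8 and 48.4 CPM in 1 day 1, 2 and 3 and fell by 1.504 in log2 units (SE 0.23 and adjusted p 0.0409). ABCI19 did not pass, at -0.51 with overlapping groups (adjusted p 0.515). AT3G56290, annotated by RefSeq as a potassium transporter, had 29.4, 55.5 and 41.1 CPM in mock 1, 2 and 3 and 8.52, 13.7 and 13.2 CPM in 1 day 1, 2 and 3 and fell by 1.85 in log2 units (SE 0.24 and adjusted p 0.0240).

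GT18, known as XLT2, adds galactose to xyloglucan of the cell wall and had 15.2, 16.0 and 15.2 CPM in mock 1, 2 and 3 and 7.16, 7.06 and 8.62 CPM in 1 day 1, 2 and 3. Its mock values were nearly equal, and its log2 fold change was -1.04 (SE 0.13 and adjusted p 0.0240). ATK4, a kinesin of the minus-end-directed class, had 48.9, 46.4 and 48.3 CPM in mock 1, 2 and 3 and 29.4, 30.2 and 33.3 CPM in 1 day 1, 2 and 3 and fell by 0.63 (SE 0.10 and adjusted p 0.0405). PES1 makes phytyl esters of fatty acids in plastids, where chlorophyll is broken down, and had 31.9, 31.5 and 31.2 CPM in mock 1, 2 and 3 and 19.1, 18.6 and 22.2 CPM in 1 day 1, 2 and 3. The log2 fold change of PES1 was -0.67 (SE 0.11 and adjusted p 0.0456). In these 3 genes the mock values lay close together. DBP1, a protein phosphatase that also binds DNA, had 29.8, 28.7 and 35.3 CPM in mock 1, 2 and 3 and 18.3, 17.3 and 19.3 CPM in 1 day 1, 2 and 3 (log2 fold change -0.78, SE 0.12, adjusted p 0.0429). SDR1, a short-chain dehydrogenase, had 36.3, 42.7 and 40.1 CPM in mock 1, 2 and 3 and 19.8, 25.3 and 25.1 CPM in 1 day 1, 2 and 3 (log2 fold change -0.77, SE 0.12, adjusted p 0.0405). Among the 31, 5 overlap a gene of the opposite strand in the RefSeq annotation (UGT84A1, SDI2, APR2, BBX25, SDR1) and 3 overlap another gene of their own strand (DTX35, DBP1, AT1G74458). How the authors counted reads of such pairs is not given in the sources used here, so these 8 values are less certain.

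The genes that rose were few. BGAL2, a beta-galactosidase, had 11.7, 19.2 and 10.97 CPM in mock 1, 2 and 3 and 46.5, 42.1 and 28.9 CPM in 1 day 1, 2 and 3. Every value after 1 day exceeded every mock value, and it rose by 1.47 on the log2 scale (SE 0.24 and adjusted p 0.0456). AT1G74458, an uncharacterized protein, had 32.2, 38.1 and 39.8 CPM in mock 1, 2 and 3 and 64.9, 65.9 and 52.8 CPM in 1 day 1, 2 and 3 and rose by 0.73 (SE 0.12 and adjusted p 0.0464). Of 13 tested beta-galactosidases, BGAL2 was the only one called, beside 0.0102% of all genes called higher. The median of the 13 was -0.03.

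Genes induced by darkness and sugar starvation were higher as a group, although none of the 20 in the list passed the adjusted threshold. Of the 20, 14 (70.0%) were higher at an unadjusted p under 0.05 and none was lower, beside 3.98% and 3.47% of all genes. In all, 18 were higher and 2 lower, with a median of 0.59. Over the alternatives that median lay between 0.47 and 0.75. BT2, a scaffold protein of sugar and nitrogen responses, had 61.1, 62.4 and 50.1 CPM in mock 1, 2 and 3 and 176, 174 and 111 CPM in 1 day 1, 2 and 3. Its groups did not overlap, with a log2 fold change of 1.41 (adjusted p 0.159). DRM1, associated with dormant buds, had 48.6 ± 10.7 CPM in mock and 117 ± 34.9 CPM after 1 day (log2 fold change 1.27, adjusted p 0.159). DIN10, of the raffinose synthase family, had 185 ± 15.6 CPM in mock and 411 ± 114 CPM after 1 day (log2 fold change 1.15, adjusted p 0.310). SEN1, a classic marker of dark-induced senescence, had 11.7 ± 10.5 CPM in mock and 38.2 ± 17.5 CPM after 1 day and a log2 fold change of 1.63 with overlapping groups (adjusted p 0.410).

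Enzymes of branched-chain amino acid breakdown stood in the same list. BCE2, a subunit of the branched-chain keto acid dehydrogenase, had 31.4, 38.1 and 29.1 CPM in mock 1, 2 and 3 and 73.8, 76.7 and 46.5 CPM in 1 day 1, 2 and 3 (log2 fold change 1.00, adjusted p 0.114). IVD, isovaleryl-CoA dehydrogenase, and the MCCA and MCCB subunits of methylcrotonyl-CoA carboxylase had log2 fold changes of 0.66, 0.69 and 0.46. Of the trehalose phosphate synthase family, TPS8, TPS9 and TPS10 had 0.78, 0.56 and 0.43. GDH1 and GDH2, subunits of the glutamate dehydrogenase that burns amino acids when carbon is short, are in the ammonium and amino acid list. GDH1 had 60.4, 77.8 and 59.6 CPM in mock 1, 2 and 3 and 127, 140.2 and 83.8 CPM in 1 day 1, 2 and 3 (log2 fold change 0.83, adjusted p 0.132), and GDH2 had a log2 fold change of 0.60 (adjusted p 0.420). PRODH1, which starts proline breakdown, had 0.59. Within that list 12 of 18 genes were lower and 6 higher, with a median of -0.09. At an unadjusted p under 0.05, 4 (22.2%) were higher and 1 (5.56%) lower, beside 3.98% and 3.47% of all genes. In BT2, BCE2 and GDH1 the lowest of the 3 libraries on carbenicillin was 1 day 3.

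Sugar transport genes were mixed, with 13 of 19 higher and a median of 0.13. SWEET12, a sucrose exporter of the phloem, had 7.71, 6.85 and 6.53 CPM in mock 1, 2 and 3 and 27.8, 21.8 and 18.9 CPM in 1 day 1, 2 and 3 (log2 fold change 1.72, adjusted p 0.159). SUC2, which loads sucrose into companion cells, had 17.2, 26.8 and 19.9 CPM in mock 1, 2 and 3 and 46.8, 34.4 and 31.2 CPM in 1 day 1, 2 and 3 (log2 fold change 0.80, adjusted p 0.159). STP1, a hexose importer, had 101 ± 6.10 CPM in mock and 155 ± 21.3 CPM after 1 day (log2 fold change 0.62, adjusted p 0.159). VI2, a vacuolar invertase, stood the other way, at -0.54 (adjusted p 0.131). Outside the lists, the genes with the lowest p on the higher side that were not called included AT1G61740, annotated as a sulfite exporter family protein, with 81.3, 64.7 and 75.2 CPM in mock 1, 2 and 3 and 154, 154 and 121 CPM in 1 day 1, 2 and 3 (log2 fold change 0.96, adjusted p 0.0585). AT3G15450, of a family first described as induced by aluminium, had 119, 213 and 147 CPM in mock 1, 2 and 3 and 612, 518 and 289 CPM in 1 day 1, 2 and 3 (log2 fold change 1.56, adjusted p 0.114). MEE14, AT5G22920, AT1G76590 and OXS3 had log2 fold changes of 1.37, 1.11, 1.37 and 1.01, with adjusted p-values of 0.109 to 0.114.

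**Figure D4:**
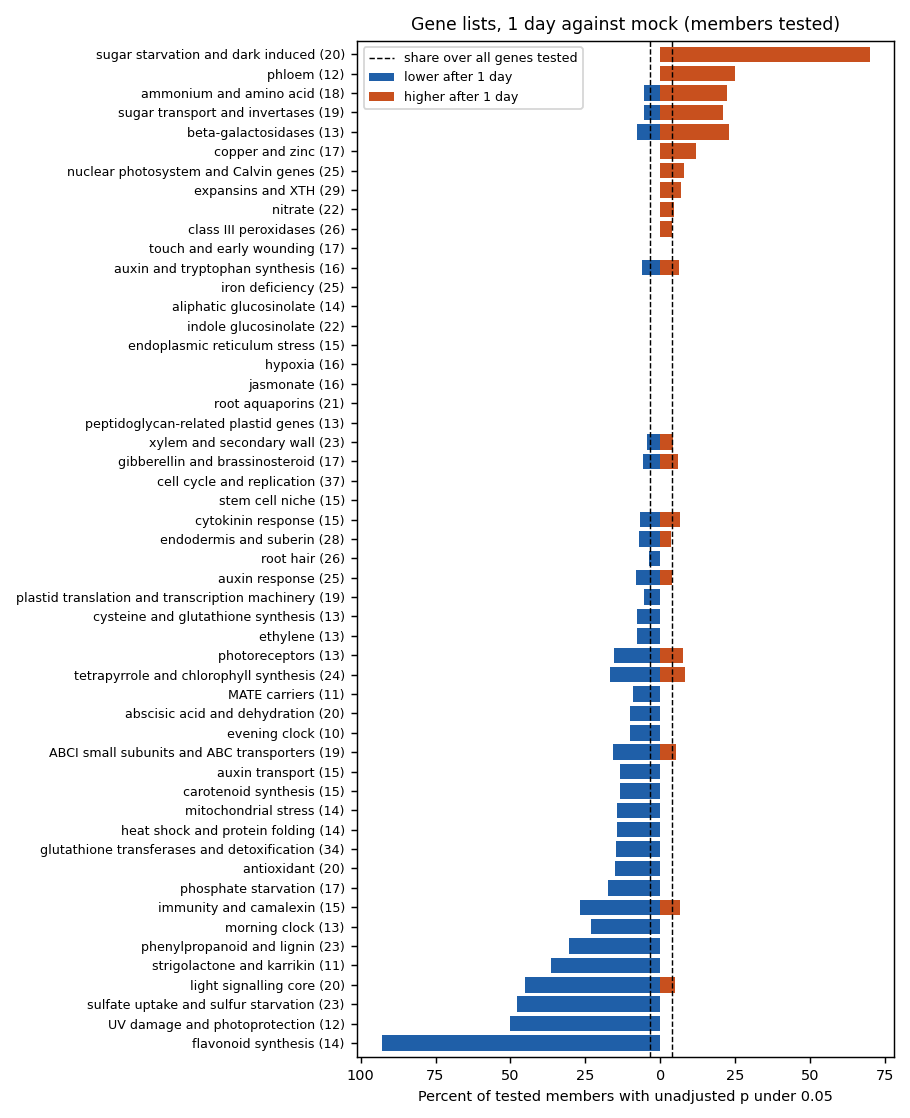
Percent of the tested members of each named list with at least 10 such members that were lower (left) or higher (right) at an unadjusted p under 0.05; dashed lines mark the shares among all genes, 3.47% and 3.98%. Flavonoid synthesis reaches 92.9% on the lower side and sugar starvation 70.0% on the higher side.

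Clock genes were mostly lower, and none was called. Of 13 morning genes 11 were lower, with a median of -0.33, but the medians by library, -0.37, 0.55 and -0.13 in mock 1, 2 and 3 and -0.56, 0.01 and -0.39 in 1 day 1, 2 and 3, set mock 2 above the rest. The list median ranged from -0.63 to 0.06 over the alternatives, so its direction was not stable. PRR9, a repressor active in the morning, had 14.7, 39.4 and 31.6 CPM in mock 1, 2 and 3 and 10.3, 12.5 and 6.14 CPM in 1 day 1, 2 and 3 (log2 fold change -1.56, adjusted p 0.114). CCA1, a central morning repressor, had 37.3, 119.8 and 34.3 CPM in mock 1, 2 and 3 and 23.7, 36.9 and 38.3 CPM in 1 day 1, 2 and 3. Mock 2 stood far above the others, and the log2 fold change of -0.98 (adjusted p 0.690) ranged from -1.35 to -0.12 over the alternatives. GI, an evening gene that also acts in light signalling, had 145, 134 and 143 CPM in mock 1, 2 and 3 and 100.4, 89.2 and 96.6 CPM in 1 day 1, 2 and 3 (log2 fold change -0.56, adjusted p 0.116), with 3 closely grouped values on each side. Of 10 evening genes 9 were lower, with a median of -0.21.

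Hormone lists held no called gene. In the strigolactone and karrikin list 8 of 11 genes were lower, with a median of -0.16. Of these, 4 (36.4%) were lower at an unadjusted p under 0.05, beside 3.47% of all genes. KAI2, the receptor for karrikins, had 41.7, 53.3 and 59.3 CPM in mock 1, 2 and 3 and 28.7, 35.6 and 31.7 CPM in 1 day 1, 2 and 3 and no overlap (log2 fold change -0.69, adjusted p 0.114). D14, the strigolactone receptor, had -0.35. Auxin response genes, 12 lower and 13 higher of 25, had a median of 0.04, and cytokinin response genes, 5 lower and 10 higher of 15, had a median of 0.08. In the gibberellin and brassinosteroid list, 12 of 17 were higher with a median of 0.12, and GA20OX2, a gibberellin synthesis enzyme, had 1.93, 2.26 and 2.96 CPM in mock 1, 2 and 3 and 7.66, 5.29 and 5.09 CPM in 1 day 1, 2 and 3 (log2 fold change 1.30, adjusted p 0.125). PIN4, an auxin exporter of the root tip, had -0.70 (adjusted p 0.148), and 11 of 15 auxin transport genes were lower with a median of -0.13.

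The lists of root tissues and growth held no called gene, and most of their medians lay near 0. Cell cycle and replication genes were lower in 31 of 37 cases, but none had an unadjusted p under 0.05, and their median of -0.14 ranged from -0.23 to 0.02 over the alternatives. By library that list lay at 0.01, -0.53 and 0.06 in 1 day 1, 2 and 3, so 1 day 2 alone was low. Stem cell niche genes (15 tested, median -0.05) and root aquaporins (21 tested, median 0.00) had no member at an unadjusted p under 0.05. Root hair genes were evenly split, 13 lower and 13 higher, with a median of 0.02, and endodermis and suberin genes (28 tested) had a median of -0.04. Phloem genes stood higher in 8 of 12 cases, with a median of 0.14, and 3 of the 12 were higher and none lower at an unadjusted p under 0.05, beside 3.98% and 3.47% of all genes. They were SUC2, given above with the sugar transporters, SMXL3, a gene of early phloem development, with 27.2 ± 2.61 CPM in mock and 40.0 ± 5.32 CPM after 1 day (log2 fold change 0.56, adjusted p 0.159), and PP2-A1, a phloem lectin, with a log2 fold change of 0.47 (adjusted p 0.541). Among 23 xylem genes, ACL5, a thermospermine synthase that restrains xylem maturation, had 67.7 ± 14.8 CPM in mock and 114 ± 20.7 CPM after 1 day (log2 fold change 0.74, adjusted p 0.159).

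The defence, stress and nutrient lists that follow held no called gene. Touch and early wounding genes, 10 of 17 lower with a median of -0.08, jasmonate genes, 6 of 16 lower with a median of 0.06, and hypoxia genes, 9 of 16 lower with a median of -0.03, had no member at an unadjusted p under 0.05. Glutathione transferases and detoxification genes were lower in 29 of 34 cases, with a median of -0.11. At that level 5 (14.7%) were lower, beside 3.47% of all genes. GSTU5 had 42.2, 55.9 and 49.0 CPM in mock 1, 2 and 3 and 16.9, 34.1 and 20.4 CPM in 1 day 1, 2 and 3 (log2 fold change -1.04, adjusted p 0.149). Heat shock and folding genes were lower in 13 of 14 cases (median -0.27, 2 at that level), and endoplasmic reticulum stress genes in 13 of 15 (median -0.25, none at that level). In the immunity and camalexin list 7 of 15 genes were lower, 4 of them (26.7%) at that level, and 1 was higher at that level (6.67%), beside 3.47% and 3.98% of all genes. The 4 were CYP82C2, CYP71A12, PAD3 and PAD4, with log2 fold changes of -2.65, -2.30, -0.73 and -0.27, and MPK3 was the one on the higher side, at 0.37. CYP82C2 had overlapping groups, from only 4, 68 and 81 counts in mock 1, 2 and 3 and 13, 10 and 0 in 1 day 1, 2 and 3. CYP71A12, which acts in the synthesis of indole defence compounds, had 98.2 ± 82.6 CPM in mock and 19.4 ± 17.7 CPM after 1 day, with overlapping groups (adjusted p 0.445). Its mock values ran from 29.4 to 189.8 CPM. Iron deficiency genes, 18 of 25 lower with a median of -0.13, had no member at that level. Of 17 phosphate starvation genes 13 were lower, 3 of them at that level, with a median of -0.09. SPX1, a phosphate sensor, had 33.8, 135 and 58.5 CPM in mock 1, 2 and 3 and 30.4, 25.8 and 51.8 CPM in 1 day 1, 2 and 3, where mock 2 was far above the others, and its log2 fold change of -1.11 ranged from -1.79 to -0.39 over the alternatives.

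No gene of photosynthesis was called. Of 25 nuclear photosystem and Calvin cycle genes, 20 were higher and 5 lower, with a median of 0.19 that ranged from -0.02 to 0.27. At an unadjusted p under 0.05, 2 (8.0%) were higher and none lower, beside 3.98% and 3.47% of all genes. By library the list lay at -0.03 and 0.01 in 1 day 1 and 2 and at 0.44 in 1 day 3, the library with 62.4 CPM of shoot transcripts. With the level of shoot transcripts as a covariate the list median was 0.23. Without 1 day 3 it was 0.03. Without the 3 shallow libraries, among them 1 day 3 and mock 1, it was -0.02, so its sign depended on the fit. That last fit kept mock 3, with 38.6 CPM of shoot transcripts, beside 1 day 1 and 2, with 1.31 and 2.11 CPM. The cause of these differences was not tested. LHCB4.1, an antenna protein, had 21.6 ± 0.226 CPM in mock and 28.7 ± 2.08 CPM after 1 day (log2 fold change 0.41, adjusted p 0.417). GUN5, a subunit of the chelatase that starts chlorophyll synthesis, had 195 ± 29.2 CPM in mock and 122 ± 17.9 CPM after 1 day (log2 fold change -0.68, adjusted p 0.159), while 15 of 24 tetrapyrrole genes were higher and the median was 0.07. Genes of the plastid genome were higher in 73 of 88 cases (median 0.11). At an unadjusted p under 0.05, 1 (1.14%) was higher, a share below the 3.98% of all genes. Mitochondrial genes were higher in 51 of 69 (median 0.12, from -0.08 to 0.31 over the alternatives), with none at that level. By library they lay at 0.11, 0.48 and -0.33 in 1 day 1, 2 and 3, so their direction was not stable. Plastid genes related to the peptidoglycan pathway of bacteria, the target of beta-lactams, had 8 lower and 5 higher of 13, a median of -0.03 and none at that level. The 19 genes of plastid transcription and translation had a median of -0.01, with 1 (5.26%) lower at that level, beside 3.47% of all genes.

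Large families defined by the product names gave mostly small medians. WRKY factors were higher in 34 of 51 cases (5 at an unadjusted p under 0.05, 9.80%) and RING-type ubiquitin ligases in 228 of 357 (34 at that level, 9.52%), beside 3.98% of all genes. bHLH factors had 11 of 81 (13.6%) higher and 2 lower at that level. By library the WRKY factors lay at 0.11, 0.21 and 0.04 in 1 day 1, 2 and 3. The RING-type ligases lay at 0.05, 0.16 and 0.03 and the bHLH factors at 0.08, 0.12 and 0.02. Each of these families was thus highest in 1 day 2. Without that library the WRKY and RING-type medians were 0.05 and 0.04, beside 0.12 and 0.08 in the reported fit. Pentatricopeptide repeat proteins, which process organelle RNA, were lower in 157 of 250 cases (median -0.09). At that level 11 (4.4%) were lower, near the 3.47% of all genes, and 3 higher. Ribosomal proteins were lower in 69 of 96 cases (median -0.09, none lower at that level). In 1 day 1, 2 and 3 the repeat proteins lay at -0.02, -0.29 and 0.03 and the ribosomal proteins at 0.01, -0.28 and 0.04. So 1 day 2 alone was low in both families, and without it each median was 0.01. Cytochrome P450s had 7 lower and 7 higher of 133 at that level (5.26% each), and protein kinases 22 lower and 26 higher of 522 (4.21% and 4.98%). These shares lay near the 3.47% and 3.98% of all genes.

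Seedlings kept on carbenicillin for 7 days were compared with the same 3 mock libraries, so the comparisons share their controls and only values are given. The log2 fold change against mock was -2.23 after 7 days and -3.70 after 1 day for ELIP1, -1.49 and -3.39 for UGT84A1, and -0.88 and -1.63 for ABCI20. It was -0.67 and -1.01 for HY5. For sulfur genes it was -1.502 and -1.57 in LSU2 and -1.40 and -1.60 in SDI1. BGAL2 had 1.26 and 1.47, and AT1G74458 0.28 and 0.73. In the direct test of 7 days against 1 day, edgeR called 0 genes, with 398 at an unadjusted p under 0.05, so no difference between the exposures was shown for any of these genes.

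**Figure D5:**
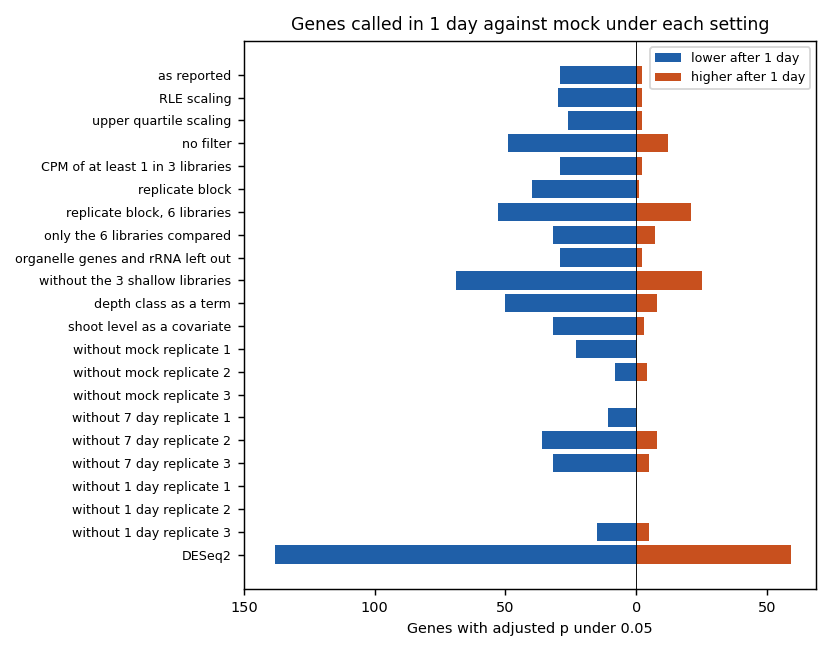
Number of genes called lower and higher after 1 day (x axis, genes) in the reported fit and in each alternative fit (y axis). The reported fit called 29 and 2, and the fits without mock 3, 1 day 1 or 1 day 2 called 0.

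The count of calls depended on which libraries were in the fit. Without mock 3, 1 day 1 or 1 day 2, edgeR called 0 genes, with 1067, 1308 and 1144 at an unadjusted p under 0.05 and lowest adjusted p-values of 0.0886, 0.233 and 0.130. Without mock 2 it called 12 genes, without the first 7 day library 11, without mock 1 it called 23 and without 1 day 3 it called 20. The count rose to 44 without 7 day 2, to 37 without 7 day 3 and to 94 without the 3 shallow libraries. The fold changes moved less than the calls. ELIP1 stayed between -4.14 and -3.495 on the log2 scale over 21 alternative fits and was called in 18, HY5 between -1.13 and -0.86 and in 15, BGAL2 between 1.304 and 1.803 and in 14, and SPA1 between -0.64 and -0.56 and in 9. With the level of shoot transcripts as a covariate, 35 genes were called, 29 of them among the 31.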

How the data were processed

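RNA from roots was purified on RNeasy columns and made into stranded total RNA libraries (TruSeq), per the labels' protocols. The authors deposited 1 table of raw counts for 28775 genes, and 2 blank lines without values were left out. Per the submitters' processing notes, the authors used cutadapt, FastQC and edgeR. Not given in the sources used here are their aligner, read counter and its strand setting, annotation and genome build. Sample titles gave the groups and replicate numbers.

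Tests were run on these counts in edgeR 4.0.16 (R 4.3.3). After filterByExpr (19580 genes) and TMM scaling, all 9 libraries entered 1 quasi-likelihood fit with group as factor, and the contrast was 1 day minus mock. A gene was called when its p, adjusted over all 19580 genes by Benjamini-Hochberg, was under 0.05. A standard error is the size of the log2 fold change over the square root of F. CPM values are scaled by TMM, except the marker sums and floors, which use total counts. The floors cover counting error only, while the standard errors include the spread between libraries. In simulated counts with 100 genes changed by 1 and 100 by 2 on the log2 scale, the fit recovered 68% and 95%, with 5 false calls among 19462 genes. Those counts were drawn with the spread that this fit had estimated and with no shift of a single library. They therefore do not show how the fit performs on the real counts.

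The lists comprise 56 named lists with 1053 distinct loci, of which 987 matched by name and locus and the rest were kept by locus, families defined by RefSeq product names, and the 2 organelle genomes. Members and lists were chosen with earlier results of these data known. List counts and medians are descriptions without a test. The named genes were all called genes, the 12 with the lowest p per direction among those not called with a mean CPM of at least 1, the called members or else the 2 lowest p-values of each list, and 15 genes fixed by name. Other list members were named after their values had been seen. Names and promoters came from RefSeq (TAIR10.1), where 28009 of the 28775 loci were found. Coordinates are those of that assembly and not of the authors' build.

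Alternatives were RLE and upper quartile scaling, no filter, a minimum CPM of 1 in 3 libraries, a replicate block, a fit of the 6 libraries alone, DESeq2 1.42.0, ribosomal RNA and organelle genes left out, the 3 shallow libraries left out, depth class or shoot level as a term, stricter thresholds, and leaving out each library in turn.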

Additional observations from a re-analysis of the deposited data

How the results depend on the processing

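Calls depended on the fit more than fold changes did. The reported 29 genes lower and 2 higher became 49 and 12 (61 in all) with no filter, 69 and 25 (94) without the 3 shallow libraries, 50 and 8 (58) with depth class as a term and 138 and 59 (197) in DESeq2. With only the 6 libraries compared, 32 were lower and 7 higher. At an adjusted p under 0.01 edgeR called 0 lower and 0 higher (0 in all, with 1459 at an unadjusted p under 0.05), and with a log2 fold change of at least 1 it called 21 lower and 1 higher. Leaving out 1 library gave 0 to 36 lower, 0 to 8 higher and 0 to 44 in all. The cause of these shifts was not tested. RLE and upper quartile scaling gave 30 and 2 and 26 and 2.

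Replicate numbers were not treated as pairs, since no label says that a number marks a shared plate, day or batch. The deviations of same-numbered mock and 1 day libraries correlated at 0.00, 0.34 and -0.14, and mock 1 correlated best with 1 day 3 (0.36). These correlations do not settle whether the numbers mark pairs. The replicate block called 40 lower and 1 higher, and 53 lower and 21 higher (74) over the 6 libraries alone, with 26 of the 31 reported genes among the calls in each.

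Of the values for named genes, 2745 kept their direction and side of the threshold, 197 lost a call, 176 gained one and 11 turned direction, all in 3 genes. SULTR1;1 (-0.00) gave 0.024 with upper quartile scaling, 0.179 without the 3 shallow libraries and -0.214 to 0.172 when 1 library was left out. GNC (-0.32) ranged from -0.651 to 0.0796 and GLK2 (0.03) from -0.0631 to 0.118 when 1 library was left out. Of the list medians, 1585 moved by no more than the SD of that list over the 3 libraries after 1 day, and 93 moved by more. That allowance was wide where these libraries lay far apart, as for the mitochondrial genome (0.11, 0.48 and -0.33 in 1 day 1, 2 and 3). Low depth in mock 1 and 1 day 3 limits what can be said of genes near the floor, such as BBX30.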
